A study of Homo sapiens with 8 samples.

Results

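The METTL5 complex and the enzymes that modify rRNA were followed in input RNA, in ribosome-protected fragments (RPFs) and in translation efficiency (TE, the ratio of RPF to input) with and without METTL5. The set held 10 genes taken by symbol, METTL5, TRMT112, BUD23, ZCCHC4, DIMT1, NAT10, EMG1, NSUN5, NOP2 and FBL, and all 10 were found among the 11244 genes of the deposited TE table.

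The cells carried the label HepG2, an established human liver cancer line. METTL5-WT cells had METTL5 intact, and METTL5-KO cells had been edited with CRISPR-Cas9. Per the labels the guides were meant to remove exons 2 to 3, whereas the study's methods number the deleted exons differently. Both genotypes had been expanded from single clones, and differences between clones cannot be told apart from genotype because the clone behind each replicate is not given in the sources used here. All cells received cycloheximide at 100 µg/mL for 7 min, which holds ribosomes on the mRNA, and each lysate was split into an input and an MNase-digested RPF sample. This gave 4 groups of 2 libraries, METTL5-WT input, METTL5-KO input, METTL5-WT RPF and METTL5-KO RPF. Nothing states that replicates came from separate cultures, so p-values measure only the spread between these samples.

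Eukaryotic rRNA is modified while the ribosomal subunits are being assembled, partly by stand-alone enzymes that each act on chosen bases and partly by small nucleolar ribonucleoproteins (snoRNPs) in which a guide RNA chooses the site. METTL5 places N6-methyladenosine (m6A) on the small-subunit rRNA near the decoding centre and is unstable without TRMT112, a small protein that also activates other methyltransferases. Among the other enzymes, BUD23 makes 7-methylguanosine, DIMT1 dimethyladenosine, NAT10 acetylcytidine and EMG1 a methylated pseudouridine on the small-subunit rRNA. ZCCHC4 makes m6A, and NSUN5 and NOP2 make 5-methylcytosine, on the large-subunit rRNA, while FBL (fibrillarin) is the ribose methyltransferase of the box C/D snoRNPs.

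METTL5 and ZCCHC4, the m6A enzymes of the small and large subunit, share a 4-residue catalytic motif that begins with Asn in METTL5 and with Asp in ZCCHC4 and continues Pro-Pro-Phe. The coding stretches around it are shown because the METTL5 stretch lies in exon 3, which both descriptions of the deletion include if exons are numbered as in this transcript. Capitals mark the 4 motif codons. The stretches were taken from the GENCODE 44 canonical transcript sequences, and their coordinates on hg38 from the exons of that annotation.
METTL5, chr2:169821102-169821131, minus strand: gtaattatgAATCCTCCCTTTgggaccaaa
ZCCHC4, chr4:25349549-25349578, plus strand: atggtgacgGATCCTCCGTTTggtggcttg
On these transcripts the motif covered residues 126 to 129 of 209 in METTL5, in exon 3 of 7. In ZCCHC4 it covered residues 276 to 279 of 513, in exon 7 of 13. The study numbers the residues of the METTL5 motif differently. Exons 2 and 3 of METTL5 held 297 of its 627 coding bases (47.4%), and exons 3 and 4 held 265 (42.3%).

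Total input counts ranged from 10710226 to 11211608 in METTL5-WT and from 12672012 to 15307257 in METTL5-KO. Reads recovered from the RPF values ranged from 3970779 to 4592443 in METTL5-WT and from 8626705 to 9255921 in METTL5-KO, so the METTL5-KO footprints were the deeper of the 2 groups. The defining markers of the labelled cell type were at or near 0. Of 9 hepatocyte markers, which included albumin, AFP, APOA1, TTR and SERPINA1, none had more than 9 input counts in any library and none had a row in the TE table. The summed level of the 9 markers was 0.373 to 0.535 CPM in METTL5-WT and 0.473 to 0.784 in METTL5-KO. Endothelial markers (3 genes) and leukocyte markers (4 genes) were also at 9 counts or fewer. The 3 fibroblast markers together reached 340 to 342 CPM in METTL5-WT and 262 to 281 in METTL5-KO, but they did not move alike. COL3A1, the largest, had 3317 and 3042 counts in METTL5-WT against 2536 and 3191 in METTL5-KO. COL1A1 was higher in METTL5-KO, with 429 and 484 counts against 666 and 937, and DCN had 83 and 119 against 118 and 170. The counts of single markers are not scaled to the library totals given above. The cells are therefore called here by their genotype labels, and the part of these levels in the results below was not tested.

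Of the 10 genes, 4 passed the input test and all 4 were lower in METTL5-KO (METTL5, EMG1, NOP2 and NAT10). The test was edgeR's quasi-likelihood test on all 14054 expressed genes with Benjamini-Hochberg adjustment and a threshold of 0.05, and it called 22.4% of all genes, 1656 higher and 1493 lower. In RPFs 3 of 10 passed, with METTL5 and EMG1 lower and BUD23 higher, in a limma fit that called 29.3% of 11240 genes. edgeR on the recovered RPF reads added NOP2 as a 4th and called 28.1% of 11130 genes. In TE only METTL5 passed, in both tests, which called 4.79% of all genes with limma and 6.95% with edgeR. Outside METTL5, the counts of called enzymes were thus 3 of 9 for input, 2 of 9 for RPF and 0 of 9 for TE, where 1 of the 9 (NOP2) had an unadjusted p under 0.05.

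The median change of the 10 genes on the log2 scale was -0.26 for input, 0.01 for RPF and 0.07 for TE, beside medians of -0.00, 0.02 and 0.02 over all genes tested. The METTL5-WT and METTL5-KO libraries did not overlap for 7 of the 10 genes in input and 6 of 10 in RPF. Of all 11244 genes, 63.3% and 61.4% did not overlap, so the enzymes stood close to the whole table in this respect. In bulk RNA, fewer cells that express a gene and less of its RNA per cell cannot be told apart.

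**Figure D1:**
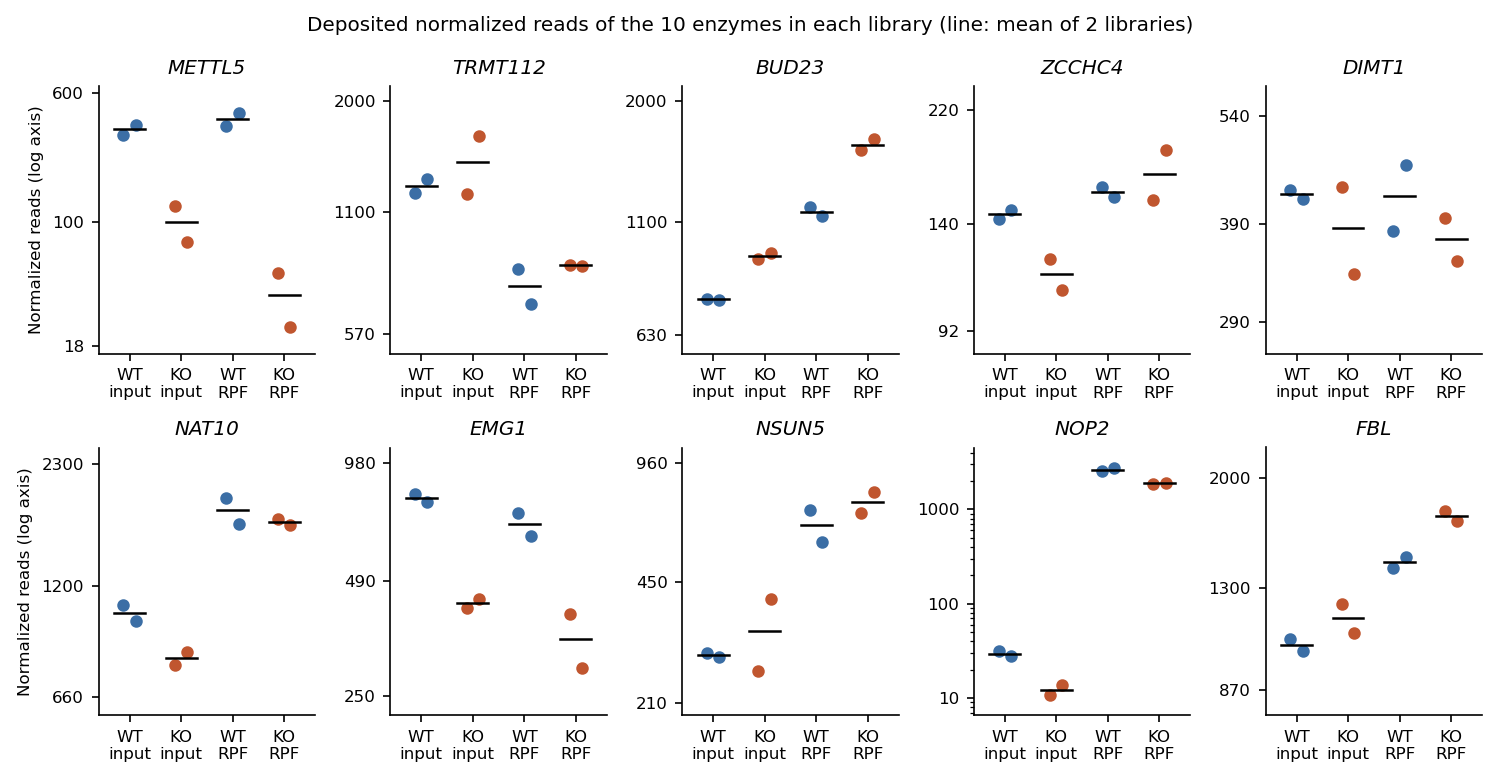
Deposited normalized reads of each enzyme (vertical log axis, with a range of its own in every panel) in the 2 METTL5-WT libraries (blue) and 2 METTL5-KO libraries (orange) of input and RPF, with black lines at the means. METTL5 falls in input and falls further in RPF, EMG1 falls by a similar factor in both, and NOP2 has an input level far below its RPF level.

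METTL5 itself (chromosome 2, 169810081 to 169824931, minus strand) checked the labels. It had 490 and 542 input counts in METTL5-WT against 208 and 151 in METTL5-KO. It had 158 and 226 recovered RPF reads in METTL5-WT against 41 and 21 in METTL5-KO, although the METTL5-KO footprint libraries were deeper. Both METTL5-KO lysates lay below both METTL5-WT lysates in input and in RPF, as the labels say.

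As counts scaled to the size of each library (CPM), METTL5 took 43.7 and 50.6 input CPM in METTL5-WT against 16.4 and 9.86 in METTL5-KO. In RPFs it took 39.8 and 49.2 CPM against 4.75 and 2.27. On the deposited scale, reads divided by a size factor, the METTL5-KO mean was 28% of the METTL5-WT mean in input and 8.79% in RPF. The 2 METTL5-KO lysates differed from each other, the first keeping more METTL5 than the second in input and in RPF.

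The input change of METTL5 was -1.86 ± 0.18 on the log2 scale (SE, 95% interval -2.24 to -1.48, adjusted p = 7.17e-08, edgeR). Its RPF change was -3.56 ± 0.30 on the log2(value + 1) scale (interval -4.19 to -2.93, adjusted p = 1.95e-07, limma). The log2 TE of METTL5 was 0.17 and 0.23 in the METTL5-WT lysates and -1.33 and -1.65 in the METTL5-KO lysates. The TE change was -1.69 ± 0.42 (interval -2.58 to -0.80, adjusted p = 0.0324, limma), and edgeR on the recovered reads gave -1.70 ± 0.35 (adjusted p = 0.00358). RPFs of METTL5 therefore fell further than its RNA did. The limma call did not hold without the variance trend (adjusted p = 0.197), without METTL5-WT replicate 2 (0.0526) or without METTL5-KO replicate 2 (0.102), and the size of the change stayed between -1.99 and -1.53 over the 17 alternatives. Reads were counted over whole genes, so footprints on deleted and retained exons were not separated.

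The genes beside METTL5 on chromosome 2 differed from it and from each other. UBR3, which encodes a ubiquitin ligase and begins 2523 bases beyond the start of METTL5, took 953 and 814 input counts in METTL5-WT against 2506 and 2487 in METTL5-KO. It rose by 1.15 ± 0.13 in input (adjusted p = 2.88e-07, edgeR) and by 0.73 ± 0.13 in RPF (adjusted p = 0.000439, limma), in the direction opposite to METTL5. On the other side SSB, the La RNA-binding protein, changed by -0.19 ± 0.13 in input (adjusted p = 0.336), and KLHL23 fell by 0.46 (SE 0.13, adjusted p = 0.0145). LINC01124, a non-coding gene past UBR3, had 17 and 28 counts against 16 and 28. Over the 40 tested genes around METTL5, as many on each side in chromosomal order, the median input change was -0.18. Of these, 6 genes were lower and 1 higher.

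The 3 genes most like METTL5 in their pair of input and RPF changes were named by Euclidean distance in that plane over 11003 genes tested in both. They were KAZN at a distance of 0.33, PIK3CD at 0.39 and HES7 at 0.41. KAZN changed by -2.06 in input and -3.30 in RPF, PIK3CD by -1.72 and -3.19, and HES7 by -1.49 and -3.37. Of these, only PIK3CD, the delta catalytic subunit of phosphoinositide 3-kinase, also passed the TE test (-1.52 ± 0.42, adjusted p = 0.046, limma). The TE change is the RPF change minus the input change, so choosing genes by that pair already set a lower TE. KAZN rested on 20 and 22 METTL5-WT footprints and 5 and 2 METTL5-KO footprints, far fewer than METTL5 had. HES7 was thin as well, with 45 and 41 METTL5-WT footprints and 4 and 12 METTL5-KO footprints. The input counts of HES7 were 26 and 29 in METTL5-WT against 10 and 15 in METTL5-KO.

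TRMT112 (chromosome 11, 64316460 to 64317559, minus strand), the partner of METTL5, passed none of the 3 tests. Its normalized input values were 1217 and 1317 in METTL5-WT against 1216 and 1659 in METTL5-KO. Its normalized RPF values were 810 and 672 in METTL5-WT against 828 and 825 in METTL5-KO. The second METTL5-KO input library stood above the other 3, and in RPF the METTL5-KO values lay just above the METTL5-WT ones. The change was 0.17 in input (interval -0.10 to 0.44, adjusted p = 0.388), 0.16 in RPF (interval -0.12 to 0.45, adjusted p = 0.395) and -0.00 in TE (interval -0.41 to 0.41, adjusted p = 0.996). An RNA change of TRMT112 as large as that of METTL5 lay outside these intervals. Without METTL5-KO replicate 1 its input change was 0.39 (adjusted p = 9.66e-05), and without METTL5-KO replicate 2 it was -0.08 (adjusted p = 0.570), so the 2 METTL5-KO libraries decided it.

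BUD23 (chromosome 7, 73683025 to 73705161, plus strand), the small-subunit guanosine methyltransferase that also depends on TRMT112, was the only enzyme called higher in RPF by the limma fit. Its normalized input values were 753 and 747 in METTL5-WT against 917 and 945 in METTL5-KO, and its RPF values were 1183 and 1131 against 1565 and 1653. All METTL5-KO values lay above all METTL5-WT values in both library types. The RPF change was 0.48 ± 0.10 (interval 0.26 to 0.69, adjusted p = 0.00224, limma) and passed under all 16 alternatives, with adjusted p from 0.000508 to 0.0356. The input change was 0.30 ± 0.12 (interval 0.06 to 0.54) and missed the threshold (adjusted p = 0.0657, edgeR). Over 9 alternatives its size ran from 0.21 to 0.33, and only 2 of them called it. With METTL5-WT replicate 1 or 2 left out it was 0.31 or 0.29, and with METTL5-KO replicate 1 or 2 left out 0.33 or 0.27. The TE change was 0.16 (interval -0.14 to 0.47, adjusted p = 0.535).

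Of the 7 methyltransferases known to use TRMT112, 2 were lower and none higher in input, 3 lower and 1 higher in RPF, and 1 lower in TE, beside 22.4%, 29.3% and 4.79% of all genes called. The list includes BUD23 and METTL5, and METTL5 is 1 of the calls in each. Its input count is near the share over all genes. The list median was -0.35 in input, -0.46 in RPF and -0.09 in TE. TRMT11, a tRNA guanosine methyltransferase, fell by 0.67 in input (SE 0.16, adjusted p = 0.00477, edgeR). N6AMT1, which methylates the translation termination factor eRF1, fell by 0.92 in RPF (SE 0.31, adjusted p = 0.0343, limma), and THUMPD2 fell by 0.46 (SE 0.15, adjusted p = 0.0321). BUD23 was thus the 1 gene of the 7 called higher in RPF, while ALKBH8 and THUMPD3 passed no test.

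**Figure D2:**
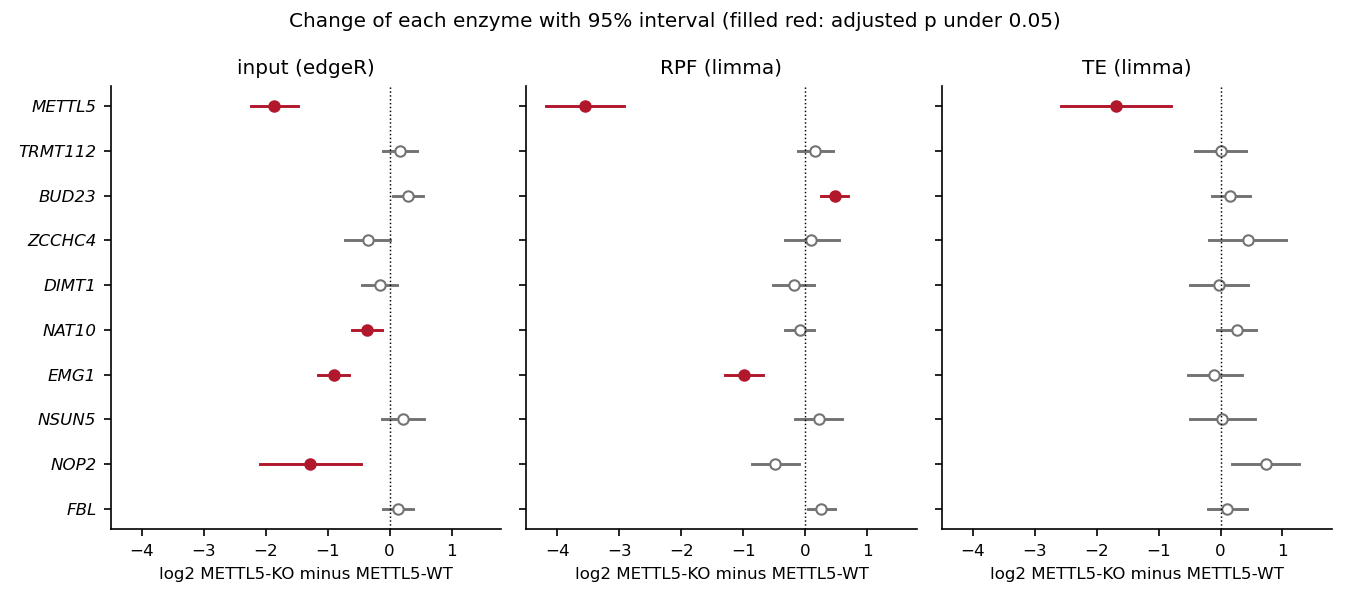
Log2 change, METTL5-KO minus METTL5-WT, of each enzyme in input (edgeR), RPF and TE (limma), with 95% intervals as bars; filled red points had an adjusted p under 0.05. METTL5 lies furthest to the left in all 3 panels, EMG1 is lower in input and RPF with a TE change of -0.10, and BUD23 is the 1 red point to the right of 0.

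ZCCHC4 (chromosome 4, 25312774 to 25370383, plus strand), the large-subunit m6A enzyme, passed no test. Its normalized input values were 143 and 148 in METTL5-WT against 122 and 108 in METTL5-KO, and its RPF values were 162 and 156 against 154 and 188. The input libraries did not overlap, and the RPF libraries did. The change was -0.35 in input (interval -0.72 to 0.01, adjusted p = 0.161), 0.10 in RPF (interval -0.33 to 0.54, adjusted p = 0.746) and 0.44 in TE (interval -0.18 to 1.05, adjusted p = 0.387). It was the enzyme with the fewest RPF reads outside METTL5-KO METTL5, 68 to 169 a library, and its intervals in RPF and TE were among the widest.

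DIMT1 (chromosome 5, 62347284 to 62403939, minus strand), which dimethylates adjacent adenosines near the end of the small-subunit rRNA, also passed no test. Normalized input was 432 and 420 in METTL5-WT against 436 and 335 in METTL5-KO, and RPF was 382 and 465 against 397 and 348. The groups overlapped in both library types. The intervals ran from -0.45 to 0.12 for input, from -0.51 to 0.15 for RPF and from -0.49 to 0.44 for TE.

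EMG1 (chromosome 12, 6970913 to 6997428, plus strand), the pseudouridine methyltransferase of the small-subunit rRNA, fell in RNA and footprints alike. Its normalized input values were 818 and 781 in METTL5-WT against 418 and 443 in METTL5-KO. Its RPF values were 734 and 640 in METTL5-WT against 405 and 294 in METTL5-KO. The groups were far apart in both, the METTL5-KO mean being 53.9% of the METTL5-WT mean in input and 50.9% in RPF. The input change was -0.90 ± 0.12 (adjusted p = 5.74e-06, edgeR), the RPF change -0.99 ± 0.15 (adjusted p = 0.000107, limma), and both passed under every alternative run. The TE change was -0.10 (interval -0.53 to 0.34, adjusted p = 0.831). Of its exon bases 96.3% were shared with no other gene of the same strand; the rest overlapped C1S, which had 69 and 78 counts in METTL5-WT against 183 and 216 in METTL5-KO.

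NAT10 (chromosome 11, 34105617 to 34147670, plus strand), the RNA acetyltransferase, was lower in input only. Its normalized input values were 1083 and 994 in METTL5-WT against 785 and 843 in METTL5-KO, and its RPF values were 1922 and 1673 against 1710 and 1658. The input groups did not overlap and the RPF groups did. The input change was -0.36 ± 0.12 (adjusted p = 0.0274, edgeR), but the call was lost without a low-count filter (adjusted p = 0.0627) and without METTL5-WT replicate 1 (0.477) or 2 (0.218). The RPF change was -0.09 (interval -0.32 to 0.14, adjusted p = 0.564) and the TE change 0.26 (interval -0.06 to 0.58, adjusted p = 0.321). The TE test therefore does not show that input and RPF of NAT10 changed differently.

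NSUN5 (chromosome 7, 73302516 to 73308826, minus strand) and NOP2 are the large-subunit cytosine methyltransferases. The normalized input values of NSUN5 were 288 and 280 in METTL5-WT against 257 and 405 in METTL5-KO, and its RPF values were 710 and 580 against 696 and 798. The groups overlapped in both, with the second METTL5-KO library the highest. The intervals ran from -0.13 to 0.56 for input, from -0.16 to 0.59 for RPF and from -0.50 to 0.56 for TE, and none of the adjusted p-values (0.392, 0.391 and 0.957) passed. Its input change was 0.51 without METTL5-KO replicate 1 (adjusted p = 0.000333) and -0.16 without METTL5-KO replicate 2 (adjusted p = 0.423). NSUN5 has near-identical copies on the same chromosome arm. Only unique input alignments were counted, so reads matching NSUN5 and a copy equally well were left out. NSUN5P1 had 22 and 12 input counts in METTL5-WT against 36 and 47 in METTL5-KO, and NSUN5P2 had 23 and 20 against 36 and 44, beside 394 to 807 for NSUN5 itself.

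NOP2 (chromosome 12, 6556863 to 6568691, minus strand), a nucleolar protein needed for large-subunit assembly, had the most unusual pair of levels. It had 46 and 39 input counts in METTL5-WT against 18 and 27 in METTL5-KO, whereas the recovered RPF reads numbered 1064 and 1371 in METTL5-WT against 1534 and 1720 in METTL5-KO. Its METTL5-WT ratio of normalized RPF to input was 89.4, the 16th highest of 11244 genes, beside a median ratio of 1.02. The annotation used for input counting places a readthrough gene, ENSG00000285238, over NOP2 on the same strand (6556886 to 6607367), and only 45.6% of the exon bases of NOP2 were free of it. That gene had 0 counts in all 4 input libraries. By default the counter leaves reads that lie in exons of several genes unassigned. CHD4, which the same readthrough gene overlaps in part, had 53.1% of its exon bases free and 163 to 240 input counts. Of all TE-table genes, 92 (0.818%) had under 50% of their exon bases free. With the same input counts divided by only the free exon bases, the METTL5-WT ratio of RPF to input per kilobase was 64.2. That was the 99.6 percentile of all genes. This scaling takes reads to be spread evenly over the exons, so it cannot decide what the overlap does. The part of the overlap in the low input of NOP2 was not tested.

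NOP2 was lower in METTL5-KO in both library types. Normalized input was 31.3 and 27.7 in METTL5-WT against 10.9 and 13.6 in METTL5-KO, and RPF was 2528 and 2750 against 1850 and 1918. The groups did not overlap in either. The input change was -1.28 ± 0.39 (adjusted p = 0.0215, edgeR), not called by DESeq2 (adjusted p = 0.0731) nor when any 1 of METTL5-WT replicate 1, METTL5-WT replicate 2 or METTL5-KO replicate 1 was left out (adjusted p from 0.0515 to 0.158). The RPF change was -0.48 ± 0.18 with limma (interval -0.86 to -0.10, adjusted p = 0.0520) and -0.51 ± 0.11 with edgeR on the recovered reads (adjusted p = 0.000957), and 7 of 16 alternatives called it. The TE change of 0.73 ± 0.25 missed the threshold in limma and in edgeR (adjusted p = 0.101 in both).

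EMG1 and NOP2 lie 402222 bases apart on the short arm of chromosome 12, in a stretch where other genes were lower as well. Among the 40 tested genes around EMG1, as many on each side in chromosomal order, the median input change was -0.45. Of these, 16 genes were lower and 1 higher, and the median RPF change was -0.35 over 31 genes. Around NOP2 the medians were -0.44 for input, with 16 genes lower and none higher, and -0.37 for RPF over 32 genes. The 2 windows share genes, and NOP2 and EMG1 are each counted as lower in the window around the other. Over all 14054 genes tested in input, 1493 were lower and 1656 higher, with a median of -0.00. Around the other 8 enzymes the input medians ran from -0.20 to 0.26 and the RPF medians from -0.09 to 0.22. EMG1 itself changed by -0.90 in input and -0.99 in RPF, and NOP2 itself by -1.28 in input and -0.48 in RPF. The part of the position in the fall of EMG1 and NOP2 was not tested.

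**Figure D3:**
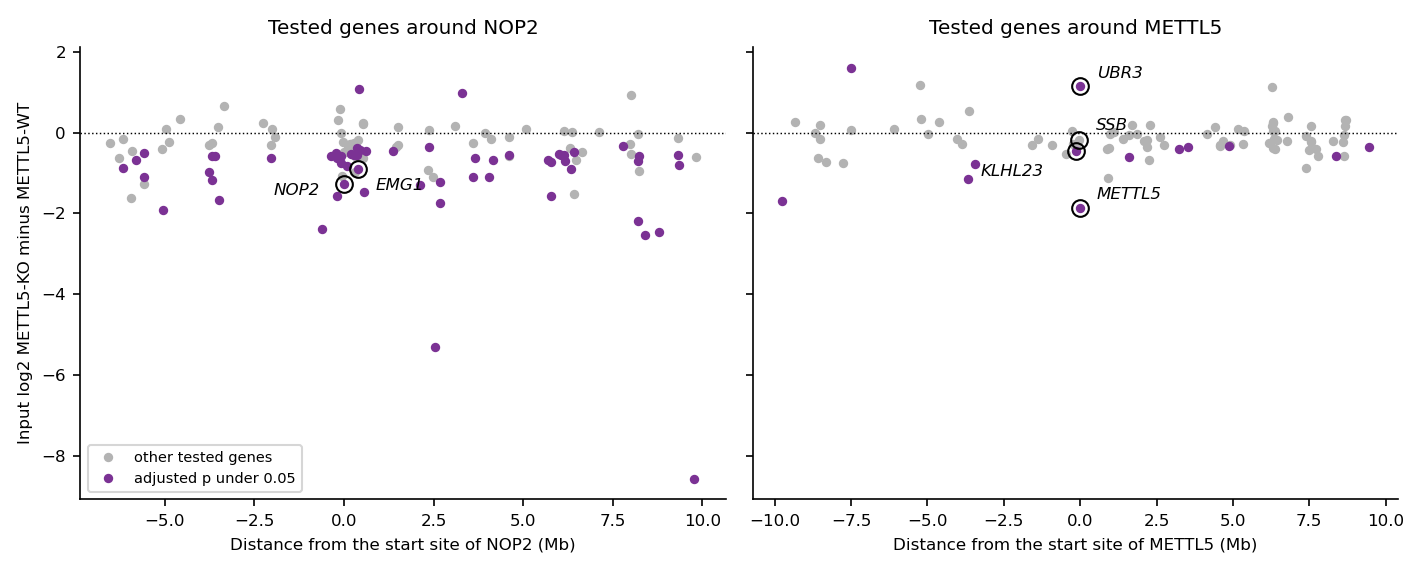
Input log2 change, METTL5-KO minus METTL5-WT, of tested genes against distance from the start site of NOP2 (left) and of METTL5 (right), in Mb; purple points had an adjusted p under 0.05 (edgeR) and circles mark named genes. Counting NOP2 and EMG1, 106 of 126 genes within 10 Mb of NOP2 lie below 0. Around METTL5, itself counted, 62 of 90 do, and the median over all genes tested was -0.00. METTL5 stands apart from SSB and KLHL23 and from UBR3, which rose by 1.15.

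FBL (chromosome 19, 39834458 to 39846379, minus strand), the ribose methyltransferase, passed no test in the fits reported here. Its normalized input values were 1063 and 1013 in METTL5-WT against 1221 and 1087 in METTL5-KO, and its RPF values were 1402 and 1468 against 1753 and 1690. Both METTL5-KO values lay above both METTL5-WT values in each library type. The RPF change was 0.26 ± 0.10 (interval 0.05 to 0.48, adjusted p = 0.0645, limma), and 2 of 16 alternatives called it, median centring (adjusted p = 0.0498) and removal of the GC trend (0.0329). The input change was 0.14 (interval -0.10 to 0.38, adjusted p = 0.429) and the TE change 0.11 (interval -0.20 to 0.42, adjusted p = 0.692).

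FBL works inside the box C/D snoRNP. Of 9 other core and assembly genes of that particle, 2 were lower in input, and 1 was lower and 2 higher in RPF, with none called in TE by limma or edgeR and none at an unadjusted p under 0.05. The input and RPF counts are near the shares over all genes (22.4% and 29.3%). NOP56, which holds the guide RNA together with NOP58, fell by 0.54 in input (SE 0.12, adjusted p = 0.00158, edgeR) and by 0.57 in RPF (SE 0.10, adjusted p = 0.000492, limma). NUFIP1, an assembly factor, fell by 0.73 in input (SE 0.26, adjusted p = 0.0488). The kink-turn binding protein SNU13 rose by 0.45 in RPF (SE 0.11, adjusted p = 0.00455) and the assembly factor ZNHIT3 by 0.53 (SE 0.12, adjusted p = 0.00368). The list median was -0.15 in input, 0.12 in RPF and 0.09 in TE, so its members went both ways.

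The box H/ACA snoRNPs convert uridine to pseudouridine. Of 6 genes none was called in input (2 at an unadjusted p under 0.05), 3 were higher in RPF and 1 in TE, beside 22.4%, 29.3% and 4.79% of all genes called, and the medians were 0.13, 0.28 and 0.20. The uncalled values went both ways, with DKC1 at -0.17 in input and NHP2 at -0.20 in TE. The core protein NOP10 rose by 0.56 in RPF (SE 0.12, adjusted p = 0.00244), the core protein GAR1 by 0.54 (SE 0.14, adjusted p = 0.00720) and the assembly factor NAF1 by 0.35 (SE 0.12, adjusted p = 0.0329), all with limma. GAR1 was also higher in TE by 0.71 (SE 0.20, adjusted p = 0.0480 with limma and 0.0300 with edgeR). DKC1, the pseudouridine synthase itself, was not called.

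A further 4 genes were grouped here under cytosolic rRNA modification, not all of them enzymes. RRP8, a base methyltransferase of the large-subunit rRNA, rose by 0.45 in input (SE 0.14, adjusted p = 0.0199, edgeR). TSR3, which transfers an aminocarboxypropyl group to the small-subunit rRNA, rose by 0.44 in input (SE 0.13, adjusted p = 0.0193, edgeR). None of the 4 was called in RPF by limma or edgeR (1 at an unadjusted p under 0.05), and the medians were 0.25 in input, 0.03 in RPF and -0.25 in TE. TSR3 was lower in TE in edgeR only (-0.67 ± 0.20, adjusted p = 0.0343). Of 10 genes grouped here under mitochondrial rRNA modification, not all of them enzymes, 9 were tested. None was called in input, RPF or TE by the tests reported here, nor in RPF or TE by edgeR on the recovered reads. At an unadjusted p under 0.05 there were 1, 1 and 0, and the medians were -0.07, 0.24 and 0.00. Of 4 other NSUN proteins, which modify mainly other RNAs, 3 were tested, and none was called or had an unadjusted p under 0.05, with medians of -0.02, 0.30 and 0.31. Over all genes 22.4% were called in input, 29.3% in RPF and 4.79% in TE (28.1% and 6.95% in RPF and TE with edgeR). Whether these short lists differ from those shares was not tested.

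The enzymes differed widely in level. In METTL5-WT the RPF level, in reads scaled to coding length and library size (RPKM), was 212 for TRMT112, 160 for FBL, 147 for BUD23 and 116 for NOP2, and EMG1 followed with 106 and 94.9 in its 2 libraries. It was 71 for METTL5, 62.7 for NAT10, 49.4 for NSUN5, 48.5 for DIMT1 and 11.1 for ZCCHC4. The METTL5-WT libraries of METTL5 and NAT10 overlapped, as did those of NSUN5 and DIMT1, and all other neighbours in this order were separate. TRMT112 stood at the 92.3 percentile of the genes with a coding length, METTL5 at the 78.9 and ZCCHC4 at the 37.4. ZCCHC4 thus had the lowest footprint density of the 10 and TRMT112, which several methyltransferases share, the highest.

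In METTL5-KO the RPF level of METTL5 on the same scale fell to 5.6, below ZCCHC4 at 10.8. The other 8 enzymes had levels between 38.3 (DIMT1) and 213 (TRMT112). By the same measure BUD23 was at 184 and FBL at 173, and their METTL5-KO libraries were separate.

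Input levels per kilobase depended on which length was used. With the exon-union length of the count table the METTL5-WT level was 151 RPKM for TRMT112, 63.7 for FBL, 26.1 for NAT10, 16.8 for EMG1, 16.5 for METTL5 and 12.4 for BUD23, the libraries of EMG1 and METTL5 overlapping. With the canonical transcript length TRMT112 (205) and FBL (121) still led, followed by BUD23 (81.9) and METTL5 (47.1). BUD23 has 7943 union exon bases and a canonical transcript of 1201, the widest gap of the 10. ZCCHC4 (4.32 and 6.82) and NOP2 (0.826 and 1.46) were lowest on both scales. With the same counts over only the exon bases free of other genes NOP2 was at 1.81, below the other 9.

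**Figure D4:**
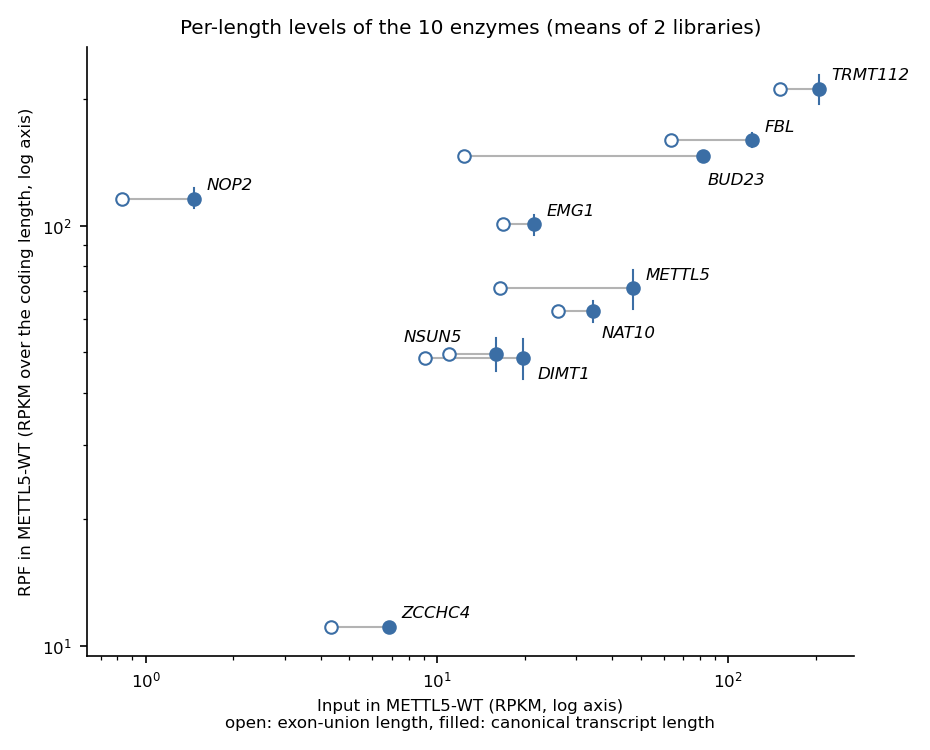
METTL5-WT RPF level (RPKM over the coding length) against METTL5-WT input level (RPKM), both log axes, each a mean of 2 libraries; open circles use the exon-union length, filled circles the canonical transcript length, and vertical bars span the 2 RPF libraries. TRMT112 is highest and ZCCHC4 lowest in RPF, and NOP2 sits far to the left of the other 9 enzymes.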

How the data were processed

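Ribosome profiling was available for 4 lysates as 4 input and 4 RPF libraries. After adapter removal with BBDuk the authors mapped input reads to hg38 with STAR 2.7.3a, kept unique alignments and made gene counts with featureCounts on the sense strand (version 1.6.0 per the submitters' processing notes, 2.0.1 per the file header), and these raw counts were deposited. Footprints were processed on the RiboToolkit server. The deposited TE table holds a normalized signal, reads divided by a size factor despite its RPKM name; 100% of its values came out as whole reads within 0.1. Its columns of the authors' own fold changes and p-values were not used.

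For input, edgeR 4.0.16 in R 4.3.3 was run with TMM factors and filterByExpr. For RPF and TE, limma 3.58.1 (variance trend) was run on log2(value + 1) over all 8 libraries, TE as the interaction, for genes whose mean reached 1 in input and in RPF; the pseudocount understates changes of low genes. edgeR and DESeq2 1.42.0 on the recovered reads were alternatives. p-values were Benjamini-Hochberg adjusted over all genes tested. Count precision follows the depths given above. Coordinates are those of the count table; coding lengths came from GENCODE 44. Scripts were tested on simulated data. Of the count table, 3 broken lines were left out.

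The 10 genes and all lists were chosen with earlier results of these data known. Named besides the 10 were the called genes of each list with the largest changes (at most 2 per direction and comparison; THUMPD2 and NAF1 were added after their values were seen), the 2 nearest tested genes on each side of METTL5, the 3 genes nearest to METTL5 in the input and RPF plane, and sequence copies. DKC1, NHP2, ALKBH8, THUMPD3, CHD4 and C1S were named after their values were seen. Input and RPF of 1 lysate are paired by the protocol (correlations of their deviations -0.02 and 0.05). The level of NOP2 over unshared exon bases was added after seeing the data.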

Additional observations from a re-analysis of the deposited data

How the results depend on the processing

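Over the alternatives, METTL5 and EMG1 stayed lower in input and RPF and BUD23 stayed higher in RPF, past the threshold each time; the other calls depended on the setting, and the cause was not tested. With the replicate block the calls were 4 of 10 in input, 3 in RPF and 1 in TE (3554, 3318 and 588 over all genes), and with the lysate as the block TE gave 1 (794 over all genes), so that the block changed no call among the 10 enzymes; across genotypes the samples shared only a number (correlations of deviations 0.04 in input and -0.00 in RPF over 11244 genes). Removing the GC trend gave 5 RPF calls among the enzymes, 301 TE calls over all genes, an RPF change of -0.02 for ZCCHC4 and a TE change of 0.18 for TRMT112 (0.18 also with the lysate block). Without the variance trend TE gave 0 calls among the enzymes and 1 over all genes, where DESeq2 on the recovered reads gave 837. TE changes near 0 switched sign for TRMT112 under median centring (0.02) and for NSUN5 under quantile normalization (-0.00), edgeR (-0.04) and DESeq2 (-0.01).

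Leaving out each lysate in turn, with the lone library assumed to vary like the others, gave 2 to 7 input calls among the enzymes (1257 to 5490 over all genes), 1983 to 2773 RPF calls over all genes, and 0 to 1 TE calls among the enzymes (4 to 265 over all genes). The lowest TE count came without METTL5-KO replicate 2, and the highest input count without METTL5-KO replicate 1. Changes that crossed 0 ranged from -0.08 to 0.39 (TRMT112), -0.35 to 0.02 (DIMT1) and -0.16 to 0.51 (NSUN5) in input, from -0.04 to 0.24 (ZCCHC4) and -0.19 to 0.01 (NAT10) in RPF, and in TE from -0.23 to 0.23 (TRMT112), -0.19 to 0.14 (DIMT1), -0.37 to 0.18 (EMG1) and -0.20 to 0.26 (NSUN5). The TE of METTL5 rests on 21 to 226 footprints a library and that of NOP2 on 18 to 46 input counts.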

Other observations

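Genes annotated as copies of METTL5 and TRMT112 elsewhere in the genome took almost no input reads. The 4 METTL5 copies had at most 2 counts in any input library and the 7 TRMT112 copies at most 5, in either genotype. The DIMT1 copy had 0 counts in all 4 input libraries.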
